A study of Mus musculus with 8 samples.

Results

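The 37 genes described here encode nuclear receptors of the mouse other than HNF4A and LRH-1. The probes were taken by name, as every array probe that is not a control and whose accession belongs to one of the 37 genes. This rule uses names only, but the genes were listed with earlier results of these data known. All 37 were on the array, by 59 of its 39429 probes, among 21612 named genes. RNA was taken from AML12 cells, a hepatocyte line derived from mouse liver and grown in DMEM F-12 medium with 10% fetal bovine serum. The 4 samples labeled irisin had received 0.5 µg/ml of irisin, the peptide cleaved from the Fndc5 protein, for 24 h, and 4 control samples had been kept for 24 h in the same medium without it. The Cy3-labeled RNA of each sample was put on an Agilent array of its own, read in 1 color. AML12 is a single line, so the 4 samples of a group share 1 cell source, and nothing in the labels says that they came from separate experiments. The p-values therefore measure only the spread between these samples.

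Nuclear receptors are transcription factors that bind DNA through zinc fingers, and many are switched by small lipophilic ligands such as steroids, bile acids, oxysterols, fatty acids, retinoids and thyroid hormone. Many of them work as a heterodimer with a retinoid X receptor, recruit corepressors without ligand and exchange them for coactivators when ligand binds. In hepatocytes they set bile acid, lipid, glucose and drug metabolism. CAR, encoded by Nr1i3, is the receptor through which phenobarbital acts in mouse liver, and the study took up irisin in its work on CAR and Gadd45β in liver tumors. The question put to these arrays here is whether irisin changed the transcripts of the receptors themselves.

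Only 1 of the receptor genes passed the test, Nr0b2, and its promoter is shown for that reason beside that of Thrb, whose dimmer probe was the only receptor probe called higher. The sequences are the 250 bases before the annotated start in the RefSeq promoter table of build GRCm38.p6, 5′ to 3′ on the plus strand, at chr4:133553126-133553375 for Nr0b2 and at chr14:17660710-17660959 for Thrb, the latter being 1 of 2 starts listed for that gene. Capitals mark the letters AGGTCA, the hexamer that nuclear receptors bind, and TCAAGG. The latter joins TCA, an extension for receptors that bind as monomers, to the opening letters AGG of that hexamer. None of the TCAAGG marked here runs on into the full hexamer. 
Nr0b2: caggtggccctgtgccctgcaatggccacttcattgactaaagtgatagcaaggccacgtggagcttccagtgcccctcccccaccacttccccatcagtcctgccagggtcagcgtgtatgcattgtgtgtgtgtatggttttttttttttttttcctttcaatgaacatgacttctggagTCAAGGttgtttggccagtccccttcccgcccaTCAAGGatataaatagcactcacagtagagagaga
Thrb: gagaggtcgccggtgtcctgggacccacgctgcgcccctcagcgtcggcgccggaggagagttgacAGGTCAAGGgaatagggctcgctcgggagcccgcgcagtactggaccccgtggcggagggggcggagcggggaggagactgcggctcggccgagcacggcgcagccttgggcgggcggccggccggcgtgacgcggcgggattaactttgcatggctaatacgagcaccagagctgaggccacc

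The Nr0b2 window held TCAAGG at 68 and 35 bases before the start and no AGGTCA. The Thrb window held AGGTCA at 184 and TCAAGG at 181 bases before the start, overlapping in 1 run of capitals. Counting both strands, TCAAGG stood in 12.5% of 32851 windows of the same length in the table and in 10.2% (5 of 49) of the windows of the receptor genes. AGGTCA stood in 14% of all windows and in 18.4% (9 of 49) of those of the receptors. The 49 windows belong to 34 of the 37 genes. These matches describe the letters of the windows, and no binding was measured.

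A probe's level is given here as the log2 of its background-subtracted signal less that of the 75th percentile of the same array, so a value of 0 is a signal at that percentile. Levels of different probes cannot be set against each other, and a change is the mean over irisin samples minus the mean over control samples of the same probe. The test was limma's over all 24093 probes that lay well above background throughout at least 1 group, and the brightest probe on average was taken for each gene. A gene was called when it changed by at least 1.5-fold (0.585 on the log2 scale) with an adjusted p under 0.05. In a bulk sample, fewer expressing cells and less RNA per cell cannot be told apart. The 75th percentile of the signal ran from 371.7 to 534.1 with control and from 681.8 to 850.4 with irisin, a difference of 0.74 on the log2 scale. The 4 control arrays lay on 1 slide and the 4 irisin arrays on another, so slide and treatment cannot be told apart. An array had from 59.5% to 64.0% of its probes well above background. All 9 hepatocyte markers, among them Alb and Ttr, were above background on all 8 arrays and none was called, but Krt18 (-0.47, adjusted p = 0.00522) and Trf (-0.39, adjusted p = 0.0204) were lower in every irisin sample. The probes of Krt18 and Trf lay in the brightest decile by signal, where the median change of the tested probes was -0.20. Of all tested genes, 19.7% were lower in every irisin sample. The summed relative signal of the 9 markers was 427 to 478 with control and 344 to 404 with irisin. Krt18 and Trf made up 60.7% to 71.2% of this sum, and its part in the results below was not tested.

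A total of 31 of the 37 receptor genes (83.8%), by 45 probes, could be tested, against 66.2% of all named genes. Of the 31, 30 were well above background on all 8 arrays. None of the 31 was called higher and 1 was called lower, Nr0b2. Among all 14312 tested genes, 0.531% were called higher and 10.2% lower. With the adjusted p alone, 3 receptor genes were lower (Nr0b2, Rxrg and Nr2f6) and none was higher, beside 17.9% lower and 2.65% higher over all tested genes. At an unadjusted p under 0.05, 6 were lower and none was higher, beside 23.6% and 5.94%. The values of the groups did not overlap for 5 receptor genes, all lower with irisin, and 19.7% of all tested genes were lower and 4.16% higher in this sense.

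Most receptors lay close to no change. The 95% interval of the change stayed within 1.5-fold in both directions for 27 of the 31 genes (87.1%), against 75.2% of all tested genes. The median change of the receptors was -0.06, and that of all tested genes also -0.06. The quartiles were -0.20 and 0.05 for the receptors and -0.22 and 0.06 for all genes. In all, 19 receptors had a negative and 12 a positive change, the range being -0.79 to 0.33.

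**Figure D1:**
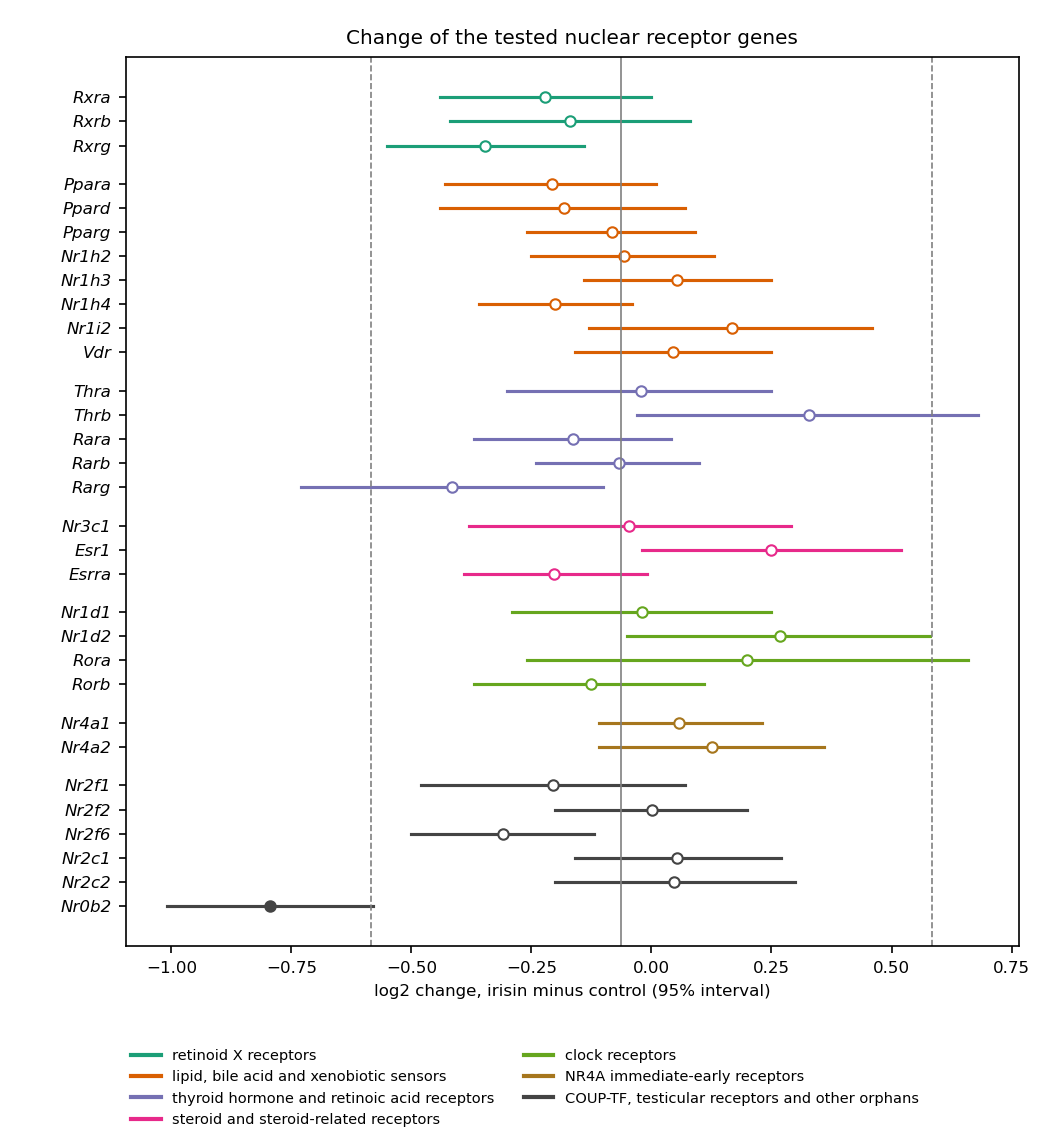
The log2 change of each of the 31 tested receptor genes (irisin minus control, 4 arrays each) with its 95% interval, grouped by subgroup. The solid vertical line is the median of all tested genes (-0.06), the dashed lines mark 1.5-fold, and the filled point, Nr0b2 at -0.79, is the 1 gene called.

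The share of called genes depended on the signal. Among the 3365 tested genes with a probe in the lowest 3 deciles of signal, 37.3% were called lower, and among the 10947 brighter genes 1.89% were. Of the 31 receptors, 5 (16.1%) lay in these 3 deciles, against 23.5% of all tested genes. These were Nr0b2, Esr1, Nr1d1, Nr1i2 and Nr2f1, of which 1 was called lower. None of the 26 brighter receptors was called.

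**Figure D2:**
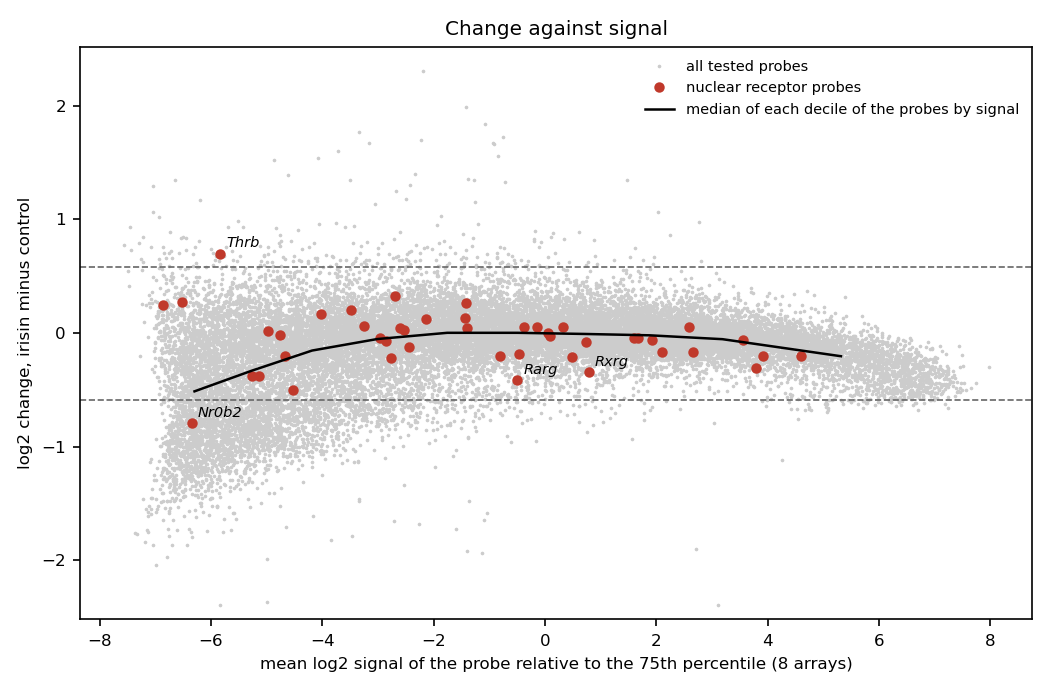
The log2 change of each of the 24093 tested probes (gray) and of the 45 receptor probes (red) against its mean log2 signal over 8 arrays, relative to the 75th percentile. The black line joins the median change of each decile of the probes by signal and runs from -0.51 at the dimmest to -0.20 at the brightest, with 0.00 in the middle. Nr0b2 lies in the dimmest decile below the lower dashed line (1.5-fold).

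Nr0b2 encodes SHP, an atypical receptor without a DNA-binding domain that represses other receptors and is induced by the bile acid receptor FXR. Its log2 level was -5.90, -6.13, -5.83 and -5.94 in control samples 1 to 4 and -6.77, -6.69, -6.63 and -6.89 in irisin samples 1 to 4. All 4 irisin samples lay below all 4 control samples. The change was -0.79 ± 0.095 (SE, n = 4 and 4), a 0.576-fold level, with a 95% interval of -1.01 to -0.58 and an adjusted p of 0.000241. An exact two-sided permutation test over the 70 assignments of the arrays gave p = 0.0286, the smallest it can give. No second probe of Nr0b2 was on the array.

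The Nr0b2 signal was close to the lower end of what the arrays measured. Of the 2409 tested probes in its decile by signal, 45.2% were called lower, and their median change was -0.51. The lowest log2 signal that was well above background averaged -6.69 over the control and -7.51 over the irisin arrays, a difference of -0.81. Before scaling, the processed signal of Nr0b2 was 6.22, 6.94, 9.39 and 8.09 in the control and 7.32, 6.59, 8.13 and 7.15 in the irisin samples. These unscaled signals overlapped between the groups and differed by -0.06 on the log2 scale. With quantile normalization the change of Nr0b2 was -0.25 and with cyclic loess -0.28, and it was not called under either. With normexp background correction it was -0.55, under the 1.5-fold threshold. The part of the signal level in the result was not tested beyond these values.

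**Figure D3:**
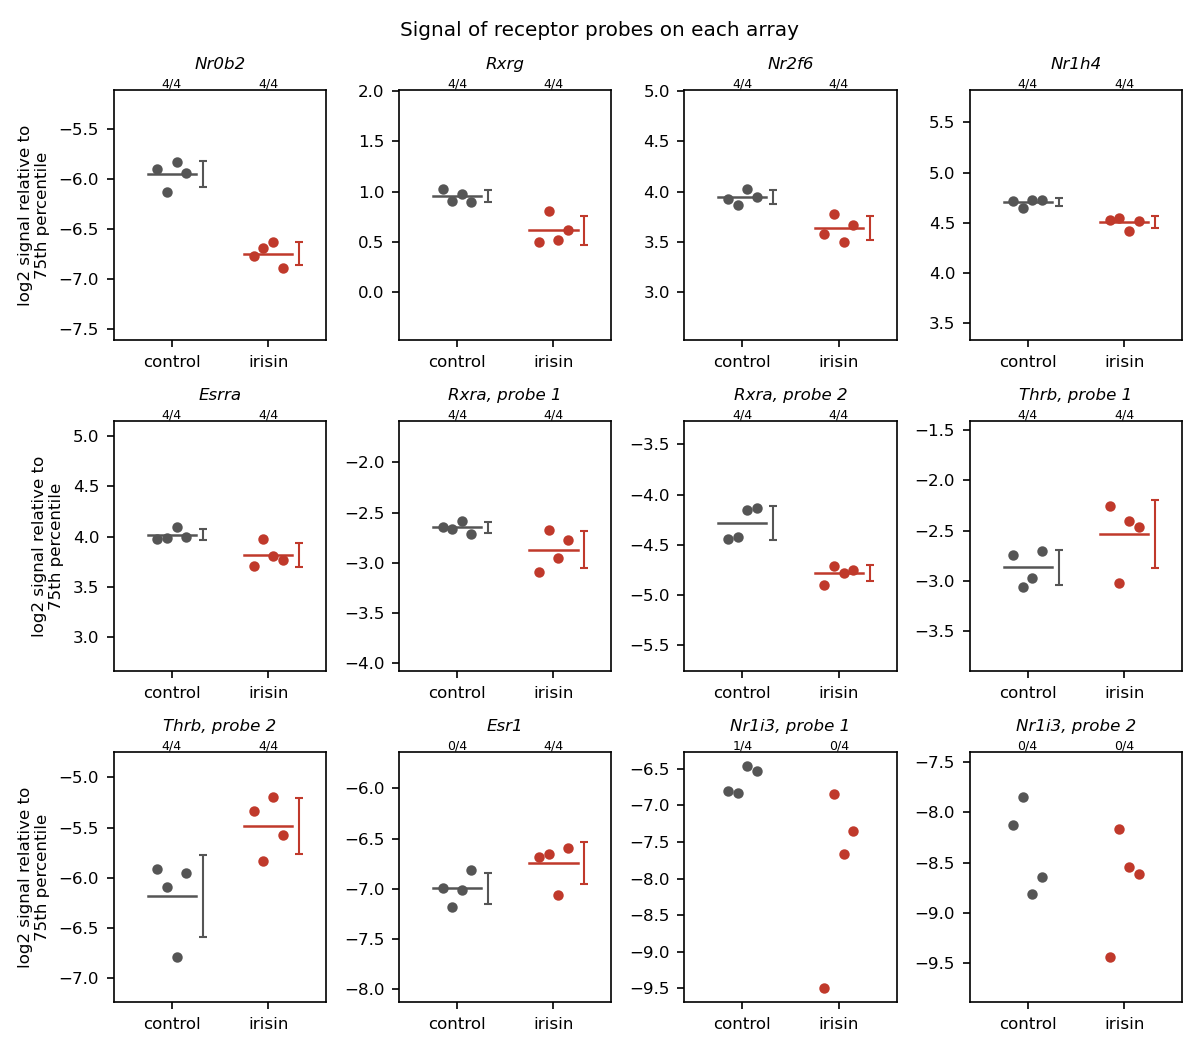
The log2 signal relative to the 75th percentile in each of 4 control (gray) and 4 irisin (red) samples for probes of 9 receptor genes, with the mean (line) and SD (bar) for tested probes. The numbers above each panel give the arrays on which the probe was well above background. The axes span equal or wider ranges and differ between probes. Among the tested probes, Nr0b2, Rxrg, Nr2f6, Nr1h4, Esrra and the second probe of Rxra are lower in every irisin sample. The second probe of Thrb is higher in every irisin sample. The brighter probe of Nr1i3, not tested, also reads lower in every irisin sample but was above background on 1 control array only.

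The retinoid X receptors, the shared partners of the heterodimeric receptors, were all 3 tested, and none was called. Their changes ran from -0.35 to -0.17. Rxrg was the receptor gene with the second lowest adjusted p. Its level was 1.03, 0.91, 0.98 and 0.90 in the control samples and 0.50, 0.81, 0.52 and 0.62 in the irisin samples. Every irisin sample was below every control sample, by the least in irisin sample 2. The change was -0.35 ± 0.09 (SE), a 0.787-fold level with a 95% interval of -0.55 to -0.14, and passed the adjusted p alone (0.017). With single arrays left out the adjusted p was 0.00322 to 0.0532, and it missed the threshold without control sample 1 and without irisin sample 3. With spike-in scaling or no scaling the change of Rxrg was 0.23 and 0.39, where the median of all genes was 0.51 and 0.67. Relative to that median Rxrg was at -0.28 under both. A dimmer second probe of Rxrg was above background on no array. Its unscaled signals were 1.55 to 2.95 with control and 0.866 to 1.09 with irisin. Those of the tested probe were 761 to 1060 and 1120 to 1310. The result for Rxrg rests on that 1 probe, and whether it reports the Rxrg transcript was not tested.

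Rxra, the main RXR of liver, had a level of -2.64, -2.66, -2.58 and -2.71 in the control samples and of -3.09, -2.67, -2.95 and -2.77 in the irisin samples by its brighter probe. Irisin sample 2 lay among the control samples. The change was -0.22 ± 0.10 (SE) and was not called (adjusted p = 0.15). Its dimmer probe read -4.44, -4.42, -4.15 and -4.13 in the control and -4.90, -4.71, -4.78 and -4.75 in the irisin samples. This probe was lower in every irisin sample, with a change of -0.50 ± 0.10 (SE) and an adjusted p of 0.00359, and stayed under 1.5-fold. With quantile normalization and cyclic loess its change was -0.23 and -0.21, with adjusted p-values of 0.127 and 0.12 in a range of 0.000985 to 0.778 over all settings. The probes of Rxra thus had the same sign, and neither was called. Rxrb, expressed in most tissues, changed by -0.17 (adjusted p = 0.342).

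Of the 9 sensors of lipids, bile acids and foreign compounds, 8 were tested and none was called, with changes between -0.21 and 0.17. FXR (Nr1h4), which senses bile acids and drives Nr0b2, had the lowest adjusted p of them. Its level was 4.72, 4.65, 4.73 and 4.73 in the control samples and 4.53, 4.55, 4.42 and 4.52 in the irisin samples. The groups did not overlap, but the change was small, at -0.20 ± 0.07 (SE), a 0.87-fold level, with an adjusted p of 0.0747. The probe of Nr1h4 lay in the brightest decile, where the median change was also -0.20.

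The fatty acid sensors Ppara, Ppard and Pparg had changes of -0.21, -0.18 and -0.08, with adjusted p-values of 0.171, 0.31 and 0.514. Its other probes put Ppara at -0.21 and 0.06. The oxysterol sensors Nr1h2 (LXRβ) and Nr1h3 (LXRα) were at -0.06 and 0.05. The xenobiotic sensor Nr1i2 (PXR) was at 0.17 and the vitamin D receptor Vdr at 0.04. For all of these the 95% interval included 0 and stayed within 1.5-fold.

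Nr1i3 (CAR) could not be tested. Its brighter probe read -6.81, -6.83, -6.47 and -6.53 in the control samples and -9.49, -6.85, -7.66 and -7.35 in the irisin samples, and was well above background on control array 3 only. Its dimmer probe read -8.12, -7.85, -8.81 and -8.64 in the control and -9.44, -8.16, -8.54 and -8.61 in the irisin samples and was above background on none. Before scaling, the brighter probe had signals of 3.32 to 6.03 with control and 1.11 to 5.90 with irisin. No change is given for Nr1i3, since its signal was not measured well on either side.

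The thyroid hormone and retinoic acid receptors were all 5 tested, and none was called. Thrb, the thyroid hormone receptor that predominates in liver, had the highest positive change of all receptors, 0.33 ± 0.16 (SE, adjusted p = 0.18). By this brighter probe its level was -2.74, -3.06, -2.97 and -2.70 in the control samples and -2.25, -3.02, -2.40 and -2.46 in the irisin samples. Irisin samples 1, 3 and 4 were above all control samples, and irisin sample 2 was among them. The dimmer probe of Thrb read -5.91, -6.09, -6.79 and -5.95 in the control and -5.34, -5.83, -5.20 and -5.57 in the irisin samples. All irisin samples were above all control samples by this probe, whose change was 0.70 ± 0.20 (SE, 95% interval 0.25 to 1.14) with an adjusted p of 0.0265, and it was called higher. Among all tested probes, 0.714% were called higher.

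The call on the dimmer Thrb probe depended on single samples. Its change was 0.50 without control sample 3, 0.65 without irisin sample 1 and 0.60 without irisin sample 3, and it was not called in any of these cases. With normexp background correction it was -0.29. Unlike for Nr0b2, the unscaled signals of this probe did not overlap, at 4.84 to 8.02 with control and 12 to 21.9 with irisin. The unscaled signals of the brighter Thrb probe did not overlap either, at 55.8 to 76.6 and 83.8 to 167. Without any scaling the median of all genes was at 0.67, so most genes stood higher on the irisin arrays on that scale.

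Rarg, the retinoic acid receptor best known from skin, had a change of -0.42 ± 0.14 (SE, 95% interval -0.73 to -0.10). It stayed under 1.5-fold and also missed the adjusted p threshold, at 0.0565. Its level was -0.36, -0.24, -0.11 and -0.48 in the control samples and -0.29, -0.89, -0.86 and -0.80 in the irisin samples. Irisin sample 1 lay among the control samples, and the other 3 lay below all of them. Rara and Rarb were at -0.16 and -0.07 by their brighter probes. The other tested probe of Rara was at -0.06 and that of Rarb at 0.27 (adjusted p = 0.398). This Rarb probe lay in the dimmest decile and was above background on 2 control and 4 irisin arrays. It could be tested only through the irisin group. Thra was at -0.02, and its dimmer probe at -0.375 with an adjusted p of 0.0909.

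Of the 5 steroid and steroid-related receptors, 3 were tested and none was called. Esrra encodes ERRα, an orphan receptor of mitochondrial and oxidative genes that works with PGC-1. Its level was 3.98, 3.99, 4.10 and 4.00 in the control samples and 3.71, 3.98, 3.81 and 3.77 in the irisin samples. All irisin samples were lower, irisin sample 2 by less than the rounding of these values. The change was -0.20 ± 0.085 (SE) with an adjusted p of 0.119. Nr3c1, the glucocorticoid receptor, was at -0.05 (adjusted p = 0.873), and its second probe at 0.06.

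Esr1, estrogen receptor α, was at the edge of detection. By the 1 probe of 4 that could be tested, its level was -6.99, -7.18, -7.01 and -6.81 in the control samples, where it was well above background on no array. It was -6.68, -6.65, -7.06 and -6.59 in the irisin samples, where it was well above background on all 4. The change of 0.25 had an adjusted p of 0.179. The irisin mean of -6.75 did not exceed the bound of -6.69 that background set on the control arrays, so no fold is given. Esr1 was the 1 receptor called higher with quantile normalization (0.885) and with cyclic loess (0.81). With normexp background correction its change was -0.45. The mineralocorticoid receptor Nr3c2 was above background on 3 control and 2 irisin arrays and was not tested, and the progesterone receptor Pgr was above background on none.

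The clock receptors were all 4 tested, and none was called. Nr1d1 and Nr1d2 (REV-ERBα and REV-ERBβ), which repress clock genes, were at -0.02 and 0.27, the latter with an adjusted p of 0.216. Rora and Rorb, which activate the same sites, were at 0.20 and -0.13 by their brighter probes. The dimmer probe of Rorb was at -0.38 (adjusted p = 0.194), and that of Rora was above background on no array. Rora had the widest 95% interval of the tested receptors, -0.26 to 0.66, which reaches past 1.5-fold.

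The NR4A receptors are encoded by immediate-early genes. Nr4a1 was at 0.06 (95% interval -0.11 to 0.23) and Nr4a2 at 0.13 (-0.11 to 0.36), with a second probe at 0.03. Neither was called, and Nr4a3 was above background on no array. The samples were taken at 24 h only, so earlier changes could not be seen.

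Among the COUP-TF, testicular and other orphan receptors, 6 of 8 were tested. Apart from Nr0b2, the one nearest to a call was Nr2f6 (EAR2), a repressor that binds the sites of other receptors. Its level was 3.93, 3.87, 4.03 and 3.95 in the control samples and 3.58, 3.78, 3.50 and 3.67 in the irisin samples. Every irisin sample was lower than every control sample. The change was -0.31 ± 0.09 (SE), a 0.807-fold level with a 95% interval of -0.50 to -0.12 and an adjusted p of 0.0229, and stayed under 1.5-fold. With single arrays left out the adjusted p of Nr2f6 was 0.00744 to 0.0682 and was under 0.05 only without control sample 2 or irisin sample 2. With spike-in scaling or no scaling its change was 0.27 and 0.43, which was -0.25 relative to the median of all genes under both. Nr2f1 (COUP-TFI) was at -0.21 by its brighter and at 0.02 by its dimmer probe. Nr2f2 (COUP-TFII) was at 0.00 with an interval of -0.20 to 0.20. Nr2c1 and Nr2c2, the testicular receptors, were both at 0.05 by their brighter probes. The dimmer probe of Nr2c1 was at 0.13 and higher in every irisin sample (adjusted p = 0.279), and that of Nr2c2 was at -0.05. Nr6a1, a germ cell receptor, and Hnf4g were above background on no array.

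A total of 13 receptor genes had more than 1 tested probe. The probes of 7 of them had the same sign, and those of the other 6 differed in sign. Rarb is among these 6 through its dimmer tested probe, which was above background on only 2 control arrays. The size of a change therefore depended on the probe for genes such as Rxra, Thra and Thrb, and only for Thrb did the choice of probe alter the call. The dimmer probes of Rxra and Thra lay in the third and second dimmest deciles by signal, where the median changes were -0.15 and -0.33. That of Thrb lay in the dimmest, where the median was -0.51 and the probe itself was higher.

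The scaling between arrays moved the center of all genes, so the receptors were also set against the median of all tested genes under each of 7 ways of correcting and scaling. That median was -0.06 with the 75th percentile, -0.10 with normexp, 0.01 for quantile normalization, 0.02 for cyclic loess, -0.08 for the median of detected probes, 0.51 for the spike-in probes and 0.67 for no scaling. The 75th percentile, the median of detected probes, the spike-in probes and no scaling shift all genes of an array alike and give the same relative values by construction, so only 4 of the 7 settings are distinct, and normexp, quantile normalization and cyclic loess moved genes unequally. In this comparison 8 receptors were below the median of all genes under all 7 (Nr0b2, Rarg, Rxrg, Nr2f6, Rxra, Ppara, Esrra and Rorb) and 7 were above it under all 7 (Thrb, Nr1d2, Nr4a2, Nr4a1, Nr2c1, Nr1h3 and Nr2c2). The other 16 changed sides. Rxrg stayed between -0.36 and -0.25 relative to all genes, Rarg between -0.44 and -0.30 and Thrb between 0.14 and 0.41. Nr0b2 kept its side over a wider range, as -0.73 with the 75th percentile and -0.26 with quantile normalization.

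**Figure D4:**
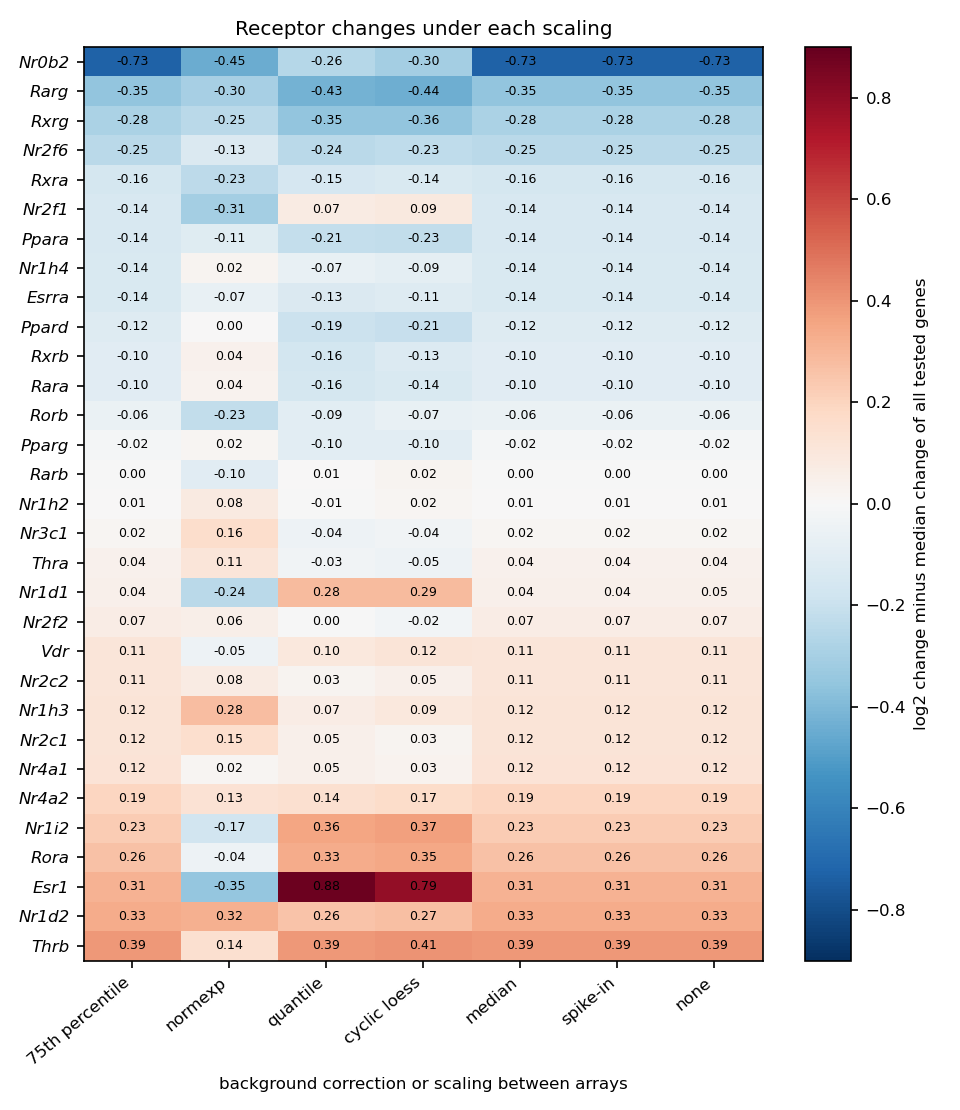
The log2 change of each of the 31 tested receptor genes minus the median change of all tested genes (color and number), under each of 7 background corrections or scalings between arrays. Nr0b2 is lowest under the 75th percentile (-0.73) and much closer to the others under quantile normalization (-0.26), and Esr1 ranges from -0.35 to 0.88.

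The genes around the receptors were described by 11 lists of coregulators, ligand enzymes, other receptors and known targets, with 161 genes in all. Of these, 122 were tested, 2 were called higher (1.64%) and 7 lower (5.74%), beside 0.531% and 10.2% of all tested genes. Their median change was -0.04. General knowledge was the source of the lists, which were set with earlier results of these data known. A gene being a known target of a receptor says nothing on whether that receptor acted on it here.

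Among 16 coactivators, all tested, Kat2b was called higher. It encodes PCAF, a histone acetyltransferase. Its level was -1.71, -1.59, -1.83 and -1.73 in the control samples and -1.10, -0.96, -0.60 and -0.86 in the irisin samples. All irisin samples were higher, with a change of 0.83 ± 0.11 (SE), a 1.78-fold level, and an adjusted p of 0.000423. It was 0.58 with normexp, just under 1.5-fold. The PGC-1 coactivators Ppargc1a and Ppargc1b were at -0.12 (adjusted p = 0.752) and -0.31 (adjusted p = 0.0777). None of 11 corepressors was called, and Ncor1, a central one, was at -0.01.

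Of 20 PPAR targets, 18 were tested, and 1 was called in each direction. Cyp4a10, a fatty acid hydroxylase, fell from -3.66, -3.91, -3.92 and -3.71 in the control samples to -4.51, -4.74, -4.83 and -4.69 in the irisin samples. The change was -0.89 ± 0.10 (SE) with an adjusted p of 0.000179, and a second probe at -0.78 was called as well. Slc25a20, the mitochondrial carnitine carrier, rose from -1.66, -1.54, -1.48 and -1.53 to -1.39, -0.33, -0.67 and -1.12. The irisin samples spread widely, and the change of 0.67 ± 0.19 (SE, adjusted p = 0.0273) was no longer called without control sample 1, 2 or 4 (0.635 to 0.68), without irisin sample 2 (0.49) or without irisin sample 3 (0.60). The median of the PPAR targets was 0.00.

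The other called list genes were all lower. Tat and G6pc, a tyrosine and a glucose enzyme of liver under glucocorticoid control, fell by 0.77 and 0.73 (adjusted p = 0.000404 and 0.00952) among 15 tested targets of the glucocorticoid receptor with a median of -0.13. Pltp, a phospholipid transfer protein and the 1 called gene of 10 tested LXR targets, fell by 0.64 (adjusted p = 0.00639), but by 0.57 without control sample 2 and 0.52 without irisin sample 4, under the threshold. Cyp2r1, the vitamin D 25-hydroxylase and the 1 called of 14 tested ligand enzymes and carriers, fell by 0.62 (adjusted p = 0.0049), but by 0.55 without control sample 3 and 0.53 without irisin sample 1. Of 9 further nuclear receptors outside the 37 genes, 4 were tested and 2 were called lower, Esrrb by -0.83 (adjusted p = 0.000736) and the steroidogenic receptor Nr5a1 by -0.72 (adjusted p = 0.000492). G6pc and Pltp had probes in the dimmest decile of the tested probes and Esrrb in the next, and none of the 7 genes called lower was in the brighter 6 deciles. With quantile normalization or cyclic loess, Cyp4a10 was the only one of the 7 still called (-0.68 and -0.64). The changes were then -0.54 and -0.51 for Tat, -0.27 and -0.26 for G6pc, -0.51 and -0.47 for Esrrb and -0.535 and -0.50 for Nr5a1, in this order of the methods. Those of Pltp were -0.086 and -0.12, and those of Cyp2r1 -0.545 and -0.51.

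No gene was called among 10 tested of 20 listed CAR and PXR targets (median -0.05) or 6 of 10 FXR targets (-0.14). The same held for 8 of 11 REV-ERB and ROR targets (0.10) and 10 of 12 thyroid hormone and retinoic acid receptor targets (-0.04). At the adjusted p alone, Por (-0.33) and Slc10a1 (-0.41) were lower and Arntl (0.24) was higher. Over all tested genes, 17.9% were lower and 2.65% higher in this way. Cyp2b10, the drug-metabolizing enzyme through which CAR activity is read in mouse liver, was above background on 1 irisin array and no control array. Fndc5, the gene of irisin itself, was above background on none. Neither was tested.

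**Figure D5:**
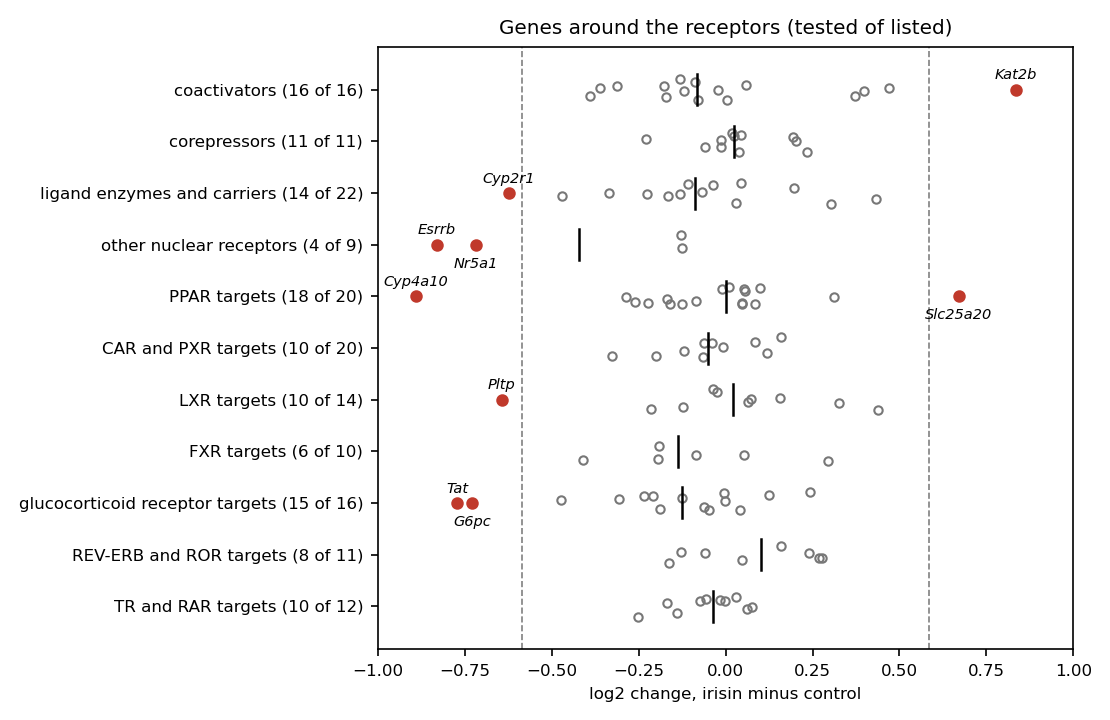
The log2 change (irisin minus control) of the 122 tested genes in 11 lists around the receptors, with the number tested of those listed. Each circle is a gene, filled and named where it was called, a black tick is the median of the list and the dashed lines mark 1.5-fold. The called genes are 2 higher (Kat2b, Slc25a20) and 7 lower.

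Markers of other cell types were checked beside these results. Of 12 such markers 6 were tested, and 1 was called, the endothelial gene Pecam1 (-0.61, adjusted p = 0.00214). The summed relative signal of the 12 markers was 42.7 to 50.7 with control and 41.3 to 48.2 with irisin, and 96.5% to 96.9% of it came from the biliary markers Krt19 and Sox9, so it says little on the others. That of the endothelial markers Pecam1, Cdh5 and Stab2 was 0.0473 to 0.0631 and 0.0327 to 0.0399, and only Pecam1 of these could be tested. Stab2 read -7.96, -8.26, -7.65 and -7.21 in the control and -7.60, -7.09, -7.53 and -7.06 in the irisin samples. It was above background on no control array and on 2 irisin arrays, so the sum does not describe the endothelial markers as a set. Cdh5, Dcn and Lrat were above background on no array, and Pecam1 lay in the second dimmest decile of the tested probes.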

How the data were processed

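Gene expression of 8 AML12 samples was measured on one-color Agilent arrays. The authors deposited, per the file headers, Feature Extraction 12.0.3.1 output: signal intensity on a linear scale, background-subtracted and detrended, not normalized between arrays. Their value table was found to be the average of the spots of each probe, within 0.0005%.

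Control spots and spots flagged as outliers (at most 0.463% of an array's 43020 other spots) were left out, and the spots of a probe averaged. Signals were put on the log2 scale and set against the array's 75th percentile. Accessions of 28663 probes (72.7%) were named through the RefSeq table of GRCm38.p6. limma 3.58.1 (lmFit, eBayes) in R 4.3.3 tested 24093 probes, with Benjamini-Hochberg adjustment over all of them. The fit was tested on simulated arrays.

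The alternatives were 6 other corrections or scalings, the value table, no filter and a stricter one, flagged spots kept and a trended robust eBayes fit. Further ones were a block on the replicate number, a plain t-test between the groups per probe, called the methods' test below, and the mean over a gene's probes. The last were the adjusted p alone, a 2-fold threshold and each array left out. For normexp (offset 50), median spot signals were used, and 16 spots on 2 arrays with a local background over 10 times the array's median were left out.

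The receptor genes and lists were chosen with earlier results of these data known. Called and non-overlapping receptors, Rxra and Nr1i3 are given by sample, and values by sample for Thrb, Rarg, Esr1 and some list genes were added after seeing them. Of the lists, called genes and the preset genes Ppargc1a, Ppargc1b, Ncor1, Cyp2b10 and Fndc5 are named, and 1 more preset gene is not reported here. Arrays have no read depth, and their number and the signal over background limit the precision. The study's other experiments were not analysed here.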

Additional observations from a re-analysis of the deposited data

Results flagged for a closer look

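A total of 82 groups of 4 values were checked for a sample far from the others, of which chance alone singles out about 1 in 20, and 4 were found. For Nr1h4 (FXR), control sample 2 was at 4.65 and the other control samples between 4.72 and 4.73, and the change without it was -0.22. For Rarg, irisin sample 1 was at -0.29 and the others between -0.89 and -0.80, and the change of -0.42 was -0.56 without it. For Esrra, control sample 3 was at 4.10 and the others between 3.98 and 4.00, and the change without it was -0.175. For Nr2f1, irisin sample 2 was at -4.57 and the others between -4.85 and -4.84, and the change of -0.21 was -0.275 without it.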

How the results depend on the processing

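The counts of called receptor genes and of called list genes held with the value table, the median of detected probes, the stricter filter, flagged spots kept, trended robust eBayes and the mean over a gene's probes. They moved with the settings below, and the cause was not tested. Receptor genes called higher and lower, 0 and 1 as reported, were 0 and 0 (normexp), 1 and 0 (quantile or cyclic loess), 11 and 0 (spike-in), 19 and 0 (no scaling), 0 and 5 with no filter on dim probes (37 tested), 0 and 3 with the adjusted p alone, 0 and 0 at 2-fold and again 0 and 1 with the methods' test. List genes called higher and lower, 2 and 7 as reported, were 0 and 4 (normexp), 4 and 1 (quantile), 5 and 1 (cyclic loess), 47 and 0 (spike-in), 86 and 0 (no scaling), 2 and 29 with no filter, 1 and 6 with the methods' test, 4 and 16 with the adjusted p alone and 0 and 0 at 2-fold. With each array left out in turn the receptor counts stayed at 0 and 1, and the list counts ran from 1 to 2 higher and from 6 to 7 lower. The median of the receptors minus that of all genes was 0.007 and ranged from -0.024 (cyclic loess) to 0.068 (no filter), and from -0.026 to 0.025 with single arrays left out. Of the called probes, 5.8% were higher as reported, 3.4% for normexp, 5.1% for median scaling, 39.6% for quantile, 43.0% for cyclic loess, 95.6% for spike-in and 98.9% for no scaling.

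With no scaling, where all genes had a median of 0.67, and with spike-in scaling, 18 of the 19 receptors with a negative change had a positive one, all but Nr0b2. The genes called in 1 of the settings with the opposite sign in the other were, with no scaling, Pparg (0.655), Nr1h2 (0.68), Thra (0.72), Rarb (0.67), Nr3c1 (0.69), Nr1d1 (0.72), Rorb (0.61), Ppargc1a (0.62), Ncor1 (0.73), Cyp2r1 (0.12), Nr5a1 (0.02), Pltp (0.094) and G6pc (0.01). With normexp this held for the dimmer Thrb probe (-0.29), and a further 9 receptors changed sign without a call under either: Nr1i2, Vdr, Thra, Nr3c1, Esr1, Rora, Nr4a1, Nr2f2 and Nr2c2. With quantile normalization 3 and with cyclic loess 5 did so. Nr0b2 was called with each array left out (-0.85 to -0.75).

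Same-numbered control and irisin samples did not deviate together (correlations 0.13, -0.38, -0.14 and 0.18 over 22821 probes). This gave no sign that the numbers pair the samples but cannot exclude it, since each group had its own slide. With the replicate number as a block, 0 receptor genes were called higher and 1 lower, and 2 and 7 list genes, while Rxrg and Nr2f6 no longer passed the adjusted p (0.0542 and 0.0767). Low signal limits Nr1i3, Nr3c2, Esr1, Nr0b2 and the dimmer tested probes of Rarb and Thrb.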
